A study of Mus musculus with 2 samples.

Results

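D10Wsu102e small RNAs are the sequences of 18 to 40 nt that match the single annotated D10Wsu102e transcript (ENSMUSG00000020255.8, GENCODE M21, GRCm38) exactly, on either strand, and 103688 of the 22794309 distinct sequences found in either of the 2 libraries did so. The gene lies on the + strand of chromosome 10 from 83360221 to 83488505. The 2 libraries come from mouse testes at 11 days after birth, 1 from tdrkh-/- and 1 from tdrkh+/- animals, each from 5 pooled pairs of testes, with RNA of 15 to 40 nt cut from a gel. Both genotypes stem from mice in which exons 2 to 4 of Tdrkh were removed through EIIa-Cre on a C57Bl6/129 background, so the tdrkh+/- control also carries 1 deleted allele, and no Tdrkh+/+ library was analysed here. The intercross that gave these genotypes also removed the Cre transgene, and the labels do not say which of the independently made knockout lines gave the tissue. The gene was chosen by its read counts, which were known to be among the highest of all hosts of small RNAs in these libraries, with its ratios in view, so its levels and ratios are a description.

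Piwi-interacting RNAs (piRNAs) are small RNAs that guide PIWI proteins in germ cells. Long single-stranded precursors are cut into intermediates that most often begin with U, and the 3′ ends of these intermediates are then trimmed until the mature length is reached. Tdrkh is a Tudor domain protein on the mitochondrial surface that takes part in this last step, and the series asks about its role in making primary piRNAs. In the neonatal and juvenile testis many piRNAs come from 3′ untranslated regions (3′ UTRs) of messenger RNAs. D10Wsu102e encodes the mouse counterpart of NOPCHAP1, a cofactor in the assembly of box C/D small nucleolar ribonucleoproteins.

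The 5′ ends below are among the 8 with the largest shares of the gene's sense reads, and they are shown because the lengths in the 2 genotypes can be compared at each. Each is represented by its leading sequence of 24 to 30 nt, which need not be the form with most reads, judged by its share of the gene's reads averaged over both libraries, 5′ to 3′ with T for U as deposited, and the capital marks the 5′ base. Positions count from the first base of the annotated mRNA, and the coordinates are those of the printed sequence in GRCm38, + strand.
5′ end 104098, chr10:83469424-83469453: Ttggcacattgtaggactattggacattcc
5′ end 104096, chr10:83469422-83469451: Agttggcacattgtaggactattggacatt
5′ end 21375, chr10:83386701-83386730: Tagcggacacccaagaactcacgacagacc
5′ end 13424, chr10:83378750-83378776: Tactgtatatctgcatgccaggggccc
5′ end 45552, chr10:83410878-83410907: Tagtttagttatggactgctctatggcccc
5′ end 67752, chr10:83433078-83433107: Accatctgtataaatatccaatgcacccga
5′ end 105875, chr10:83471201-83471229: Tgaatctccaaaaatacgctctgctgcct
All of these lie in exon 4, in the annotated 3′ UTR. The ends at 13424, 45552 and 67752 have sequences found in no other annotated gene. The printed sequences at 21375 and 105875 each match another gene on the same strand and 1 on the opposite strand. Those at 104098 and 104096 match another gene on the opposite strand only.

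The Tdrkh-/- library held 60973266 reads and the Tdrkh+/- library 43172204, of which 2476107 and 2344521 were microRNA reads. Levels are given per 1000 microRNA reads. The labels were checked on Tdrkh itself: reads on exons 2 to 4 numbered 0 and 17, while the other exons had 290 and 476. The 8 testis and germ-line microRNAs listed for the tissue check had 119 to 185237 reads in Tdrkh-/- and 95 to 126507 in Tdrkh+/-, with Mir34c, at 119 and 549, the lowest in Tdrkh-/-. The microRNAs listed for other tissues that could be matched had 0 to 96 reads. Of these, Mir122 of liver had 1 and 0 and Mir133a of muscle 89 and 96, so the latter reached the level of Mir743 in Tdrkh+/-, the lowest testis microRNA there with 95. Mir206 of muscle and Mir124 of nervous tissue were listed but not matched, so they have no value here. There is 1 library per genotype, so no difference has a replicate check and no test was run. Intervals cover counting error only, at 95%, and since no molecular identifiers were used, reads do not each stand for a molecule. In RNA from whole testes, fewer germ cells and less RNA per germ cell cannot be told apart.

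The annotated mRNA is unusual in shape, and nearly all small RNAs came from a part of it that a second annotation does not count as the gene. Its 4 exons sum to 123179 nt, of which 38 nt are 5′ UTR, 558 nt coding sequence, stop codon included, and 122583 nt 3′ UTR. Exon 4 alone spans 122802 nt, from 83365704 to 83488505. RefSeq ends the same gene at 83368835 on GRCm38.p6, which is position 3509 of the GENCODE mRNA, or 2.85% of its length. Beyond that point began 98.4% (Tdrkh-/-) and 95.7% (Tdrkh+/-) of the sense reads of 24 to 30 nt, and 97.6% and 97.8% of those of 31 to 37 nt. The name D10Wsu102e therefore stands here for a 123.2 kb annotated stretch, and the label of a messenger RNA source holds as far as the GENCODE model does.

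Of the 103688 sequences, 71156 matched the sense strand alone, 32124 the antisense strand alone and 408 both. By reads the balance differed. Antisense-only sequences carried 71.5% of the matching reads in Tdrkh-/- and 45.7% in Tdrkh+/-, and sense-only sequences 28.3% and 53.8%. Sequences that matched microRNA or structural RNA genes (65) were set aside, as were 16191 that matched more than 20 genes on a strand and counted as repeat-derived. The latter carried 60.9% of the matching reads in Tdrkh-/- and 28.2% in Tdrkh+/-. The remaining 87432 sequences are described below, with reads divided equally among the genes matched on that strand, and, for positions, among the places matched in the mRNA. Of these sequences, 48124 were found in Tdrkh-/-, 58933 in Tdrkh+/- and 19625 in both.

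In the knockout there were fewer sense RNAs of piRNA size and more of greater length. Reads of 24 to 30 nt numbered 147521 in Tdrkh-/- and 264314 in Tdrkh+/-, or 59.6 and 113 per 1000 microRNA reads, a log2 ratio (Tdrkh-/- over Tdrkh+/-) of -0.92 (-0.93 to -0.91). Reads of 31 to 37 nt numbered 291256 and 54097, or 118 and 23.1 per 1000 microRNA reads, a log2 ratio of 2.35 (2.34 to 2.36). For every read of 24 to 30 nt there were 1.97 long reads in Tdrkh-/- and 0.205 in Tdrkh+/-. The mean length of reads of 24 to 40 nt was 32.5 nt and 28.8 nt. The most frequent length was 32 nt in Tdrkh-/-, with 24.2 reads per 1000 microRNA reads against 5.01, and 27 nt in Tdrkh+/-, with 27.8 against 7.03. Within the shorter window, reads of 24 nt were higher in Tdrkh-/-, at 3.79 and 2.26. Those of 30 nt were also higher there, at 17.3 and 14.6, with a log2 ratio of 0.24 against 0.75 at 24 nt. Reads of 18 to 23 nt were also more frequent in Tdrkh-/-, at 12 and 5.96, and so were those of 38 to 40 nt, at 23 and 3.82. Over 18 to 40 nt the sum was 1.46 times as high in Tdrkh-/-, a log2 ratio of 0.54. Scaling per read listed or per transcript-matching read shifts every log2 ratio by -0.42 or -0.57, so this excess of the sum depends on the scale.

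**Figure D1:**
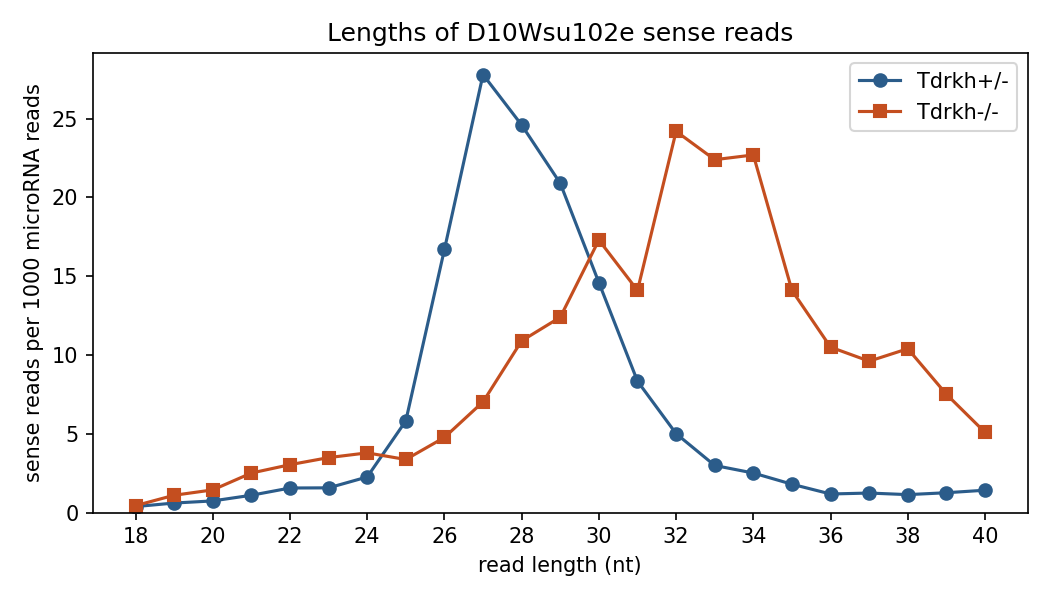
Sense reads per 1000 microRNA reads (vertical axis) at each read length from 18 to 40 nt (horizontal axis) in the Tdrkh+/- library (circles) and the Tdrkh-/- library (squares), 1 library each. The Tdrkh+/- curve peaks at 27 nt with 27.8, the Tdrkh-/- curve at 32 nt with 24.2, and Tdrkh+/- is the higher of the 2 from 25 to 29 nt alone.

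Among host genes, D10Wsu102e was near the top by reads and ordinary in its length exchange. It ranked 2 in Tdrkh-/- and 3 in Tdrkh+/- at 24 to 30 nt, and 1 and 2 at 31 to 37 nt, among 4008 host genes, protein-coding or long noncoding, that had 500 or more sense reads of 24 to 30 nt over both libraries. It held 2.98% and 2.42% of their reads of 24 to 30 nt. These ranks and shares use reads summed over the 123.2 kb annotated mRNA and were not adjusted for length. The RefSeq part had 2395 and 11422 of the gene's reads of that size. Of these genes 73.4% were lower by 2-fold or more at 24 to 30 nt in Tdrkh-/- and 5.06% were higher by as much, and D10Wsu102e, at a ratio of 0.528, was neither. It passed 2-fold lower under other settings, at log2 ratios of -1.34 per read listed, -1.49 per transcript-matching read, -1.46 with distinct sequences counted once, -1.23 with single-gene sequences and -1.61 at 26 to 28 nt. So did 83.8% of host genes per read listed, 92.3% with distinct sequences and, of 3203 genes compared, 78.4% with single-gene sequences. Among reads of 31 to 37 nt, 77.8% of genes were higher by 2-fold or more and 1.20% were lower by as much, and D10Wsu102e was among the former with a ratio of 5.10. With distinct sequences counted once its log2 ratio was 0.66, under 2-fold, and 15.9% of genes were higher by 2-fold or more. Shorter reads were lower and longer reads higher in 86.2% of the genes, D10Wsu102e included. Its log2 ratios lay above 75.6% of the genes at 24 to 30 nt, where the median was -1.58, and above 72.0% at 31 to 37 nt, where it was 1.73. Its ratio of long to shorter reads stood at percentile 46.3 in Tdrkh-/- and 50.5 in Tdrkh+/-, close to the medians of 2.07 and 0.204.

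The ratio at 24 to 30 nt was lower for sequences found in no other gene. Such single-gene sequences had 84321 reads in Tdrkh-/- and 187402 in Tdrkh+/-, a log2 ratio of -1.23 (-1.24 to -1.22). Sequences shared by 2 to 5 genes had -0.63 (-0.65 to -0.62) and those shared by 6 or more -0.73 (-0.74 to -0.71). The repeat-derived sequences set aside had 0.97 (0.96 to 0.99), the opposite direction. In the longer window the single-gene sequences had 191368 and 36116 reads and a log2 ratio of 2.33. Sequences shared by 2 to 5 genes had 2.59 there, those shared by 6 or more 1.54, and the repeat-derived ones 3.19. Single-gene sequences held 57.2% (Tdrkh-/-) and 70.9% (Tdrkh+/-) of the divided reads of 24 to 30 nt. Among the genes that shared most reads with the sense strand of D10Wsu102e were Slc38a6, an amino acid transporter, on the same strand (3489 sequences) and Noct, a circadian phosphatase, on the opposite strand (3823 sequences). For a sequence shared on the same strand these data cannot tell which gene it came from. One that matches another gene on the opposite strand only is not a piece of that gene's annotated transcript. Sites outside annotated transcripts were not analysed here.

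The coding sequence and the near 3′ UTR, the part that RefSeq also counts as D10Wsu102e, had a lower ratio at 24 to 30 nt than the rest. It had 2395 reads of this size in Tdrkh-/- and 11422 in Tdrkh+/-, a log2 ratio of -2.33 (-2.40 to -2.27), against -0.88 (-0.89 to -0.87) beyond the RefSeq end. All sequences in the RefSeq part matched this gene alone, and single-gene sequences beyond it had -1.18 (-1.19 to -1.17). The coding sequence had 261 and 1389 reads (-2.49), of which exon 2 held 129 and 939, and the 5′ UTR had 0 and 1. The ratios of the longer reads lay closer together, at 2.46 (2.37 to 2.55) in the RefSeq part, from 6965 and 1199 reads, and 2.35 (2.33 to 2.36) beyond it. Per kb of mRNA the RefSeq part was no poorer in Tdrkh+/- than the rest, at 3260 reads of 24 to 30 nt against 2110, and in Tdrkh-/- it had 683 against 1210. These values lie inside the spread between 1-kb stretches given below.

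Small RNAs were found along the whole 123.2 kb, but a few stretches carried many of them. Of 124 stretches of 1 kb, 121 had at least 100 sense reads of both 24 to 30 nt and 31 to 37 nt over both libraries. The 10 richest held 39.8% (Tdrkh-/-) and 30.9% (Tdrkh+/-) of the sense reads of 24 to 37 nt. The richest ran from position 104001 to 105000 (83469327 to 83470326) and held 12.8% and 5.99%. Of its reads 5.49% and 13.6% were of sequences that matched no other gene on either strand. The end at 104098 lies in it, with 29777 and 4050 reads of 24 to 40 nt, and so does that at 104096, with 23901 and 6921. Their printed sequences matched another gene on the opposite strand only. The richest stretch had 17269 and 13846 reads of 24 to 30 nt and 39109 and 5221 of 31 to 37 nt. The stretch from 13001 to 14000 (83378327 to 83379326) shows the exchange of lengths well: it had 2016 and 13452 of the shorter reads (-2.82) and 8046 and 528 of the longer (3.85), all in single-gene sequences. The levels of the 121 stretches at 24 to 30 nt ran in parallel between the libraries, with Pearson's r of 0.75 on the log2 scale and Spearman's rho of 0.74, as a description across stretches that share the same 2 libraries.

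**Figure D2:**
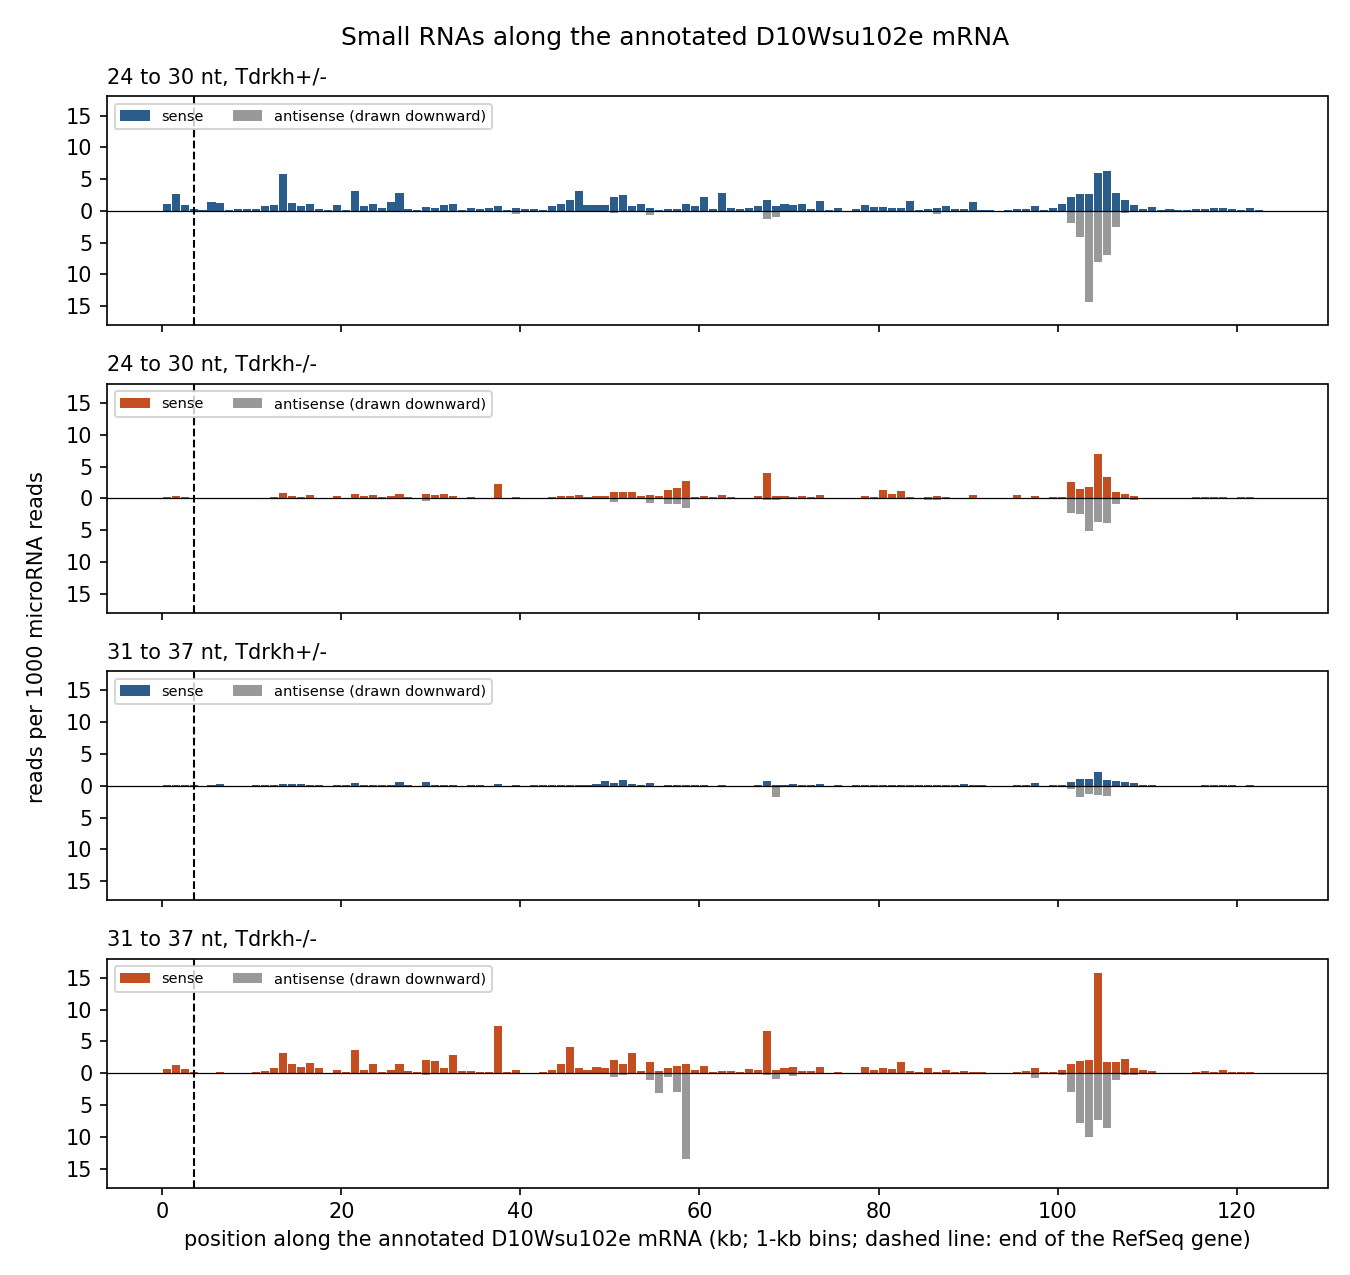
Reads per 1000 microRNA reads (vertical axis) in 1-kb bins along the annotated D10Wsu102e mRNA (horizontal axis, kb) for 24 to 30 nt and 31 to 37 nt in each library, with sense reads drawn upward in colour, antisense reads drawn downward in grey and the end of the RefSeq gene as a dashed line. Most reads lie beyond the dashed line, the Tdrkh-/- sense reads of 31 to 37 nt are highest in the bin from 104001 to 105000, and antisense reads are absent from the first 10 kb.

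Most stretches showed the same exchange as the gene as a whole. Reads of 24 to 30 nt were lower in Tdrkh-/- in 105 of the 121 stretches, with a median log2 ratio of -1.56 and a middle range of -2.06 to -0.92. Reads of 31 to 37 nt were higher in 117, with a median of 2.19 and a middle range of 1.44 to 2.86. In 101 stretches the shorter reads were lower and the longer higher, and in each of the 121 the ratio of long reads exceeded that of shorter reads. The median of the stretches at 24 to 30 nt is lower than the ratio of the summed reads (-0.92), which was -1.02 without the richest stretch, itself at 0.24.

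Of the stretches that departed from this pattern, 16 were higher at both lengths and 4 lower at both. Those from 56001 to 59000 were neighbours among the former, and their log2 ratios were 1.97, 2.63 and 1.24 at 24 to 30 nt and 4.26, 4.43 and 4.16 at 31 to 37 nt. In the last of these, 4.95% of sense reads in Tdrkh-/- came from single-gene sequences, and antisense reads of 31 to 37 nt numbered 33615 and 369. The stretch from 67001 to 68000 was higher at both lengths (1.17 and 3.11) with 9691 and 4087 reads of 24 to 30 nt, all in single-gene sequences. The stretches from 5001 to 7000 were lower at both lengths and lay in single-gene sequence. They had 186 and 3098 reads of 24 to 30 nt in the first kb (-4.14) and 282 and 3026 in the second (-3.50), and long reads stood at -0.45 and -0.72.

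**Figure D3:**
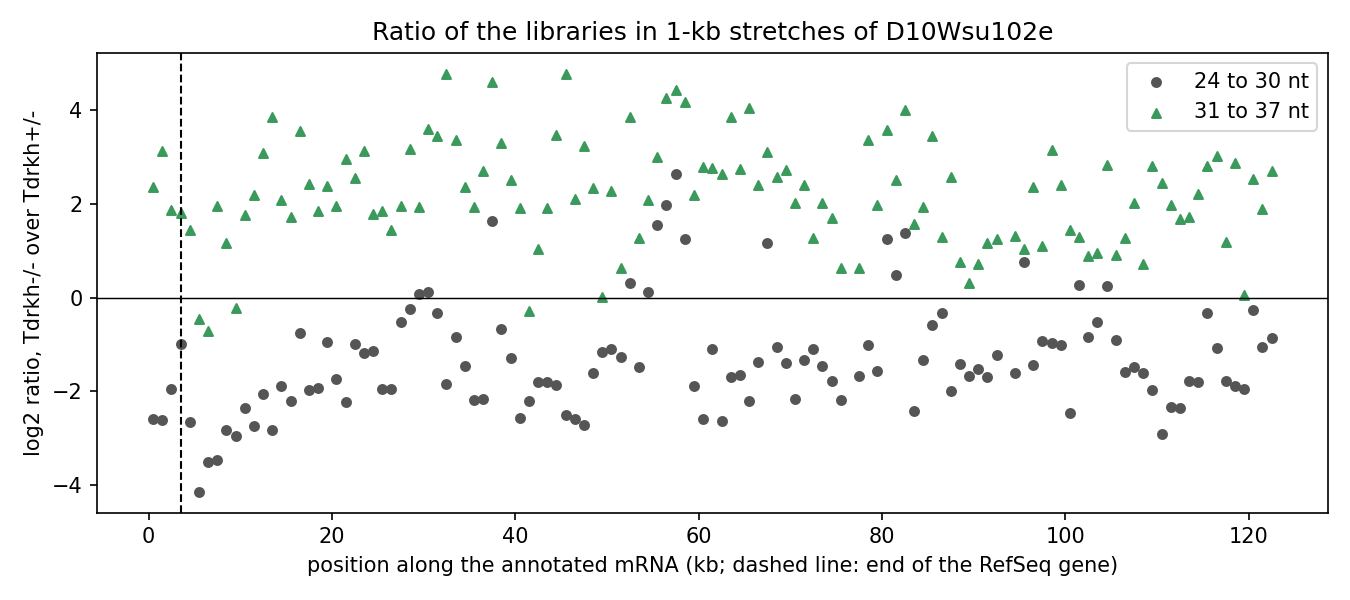
Log2 ratio of Tdrkh-/- to Tdrkh+/- sense reads per microRNA read (vertical axis) in the 121 stretches of 1 kb along the annotated mRNA (horizontal axis, kb), with circles for 24 to 30 nt, triangles for 31 to 37 nt and a dashed line at the end of the RefSeq gene. Triangles lie above the circle of the same stretch throughout, with medians of 2.19 and -1.56.

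Reads that shared a 5′ start differed in length between the genotypes. Sense reads of 24 to 40 nt began at 13917 positions in Tdrkh-/- and 18562 in Tdrkh+/-, of which 9159 were shared, or 65.8% and 49.3% of the ends with 94.5% and 90.7% of the reads. For 1233 ends both libraries had 20 reads or more, and the median over ends of the mean read length was 31.7 nt for Tdrkh-/- and 28.9 nt for Tdrkh+/-. Tdrkh-/- reads were longer at 1086 of these ends (88.1%) and shorter at 141, and the median gap was 2.20 nt, with quartiles of 0.62 and 4.01 nt. At the 969 ends with a U the median difference was 2.32 nt, and at the 264 others 1.65 nt. The log2 ratio of reads at these ends had a median of 0.13 and quartiles of -0.80 and 1.20, a range that the minimum in both libraries narrows. The 580 ends with 200 or more reads over both libraries had a median of 0.55 and quartiles of -1.29 and 2.60.

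**Figure D4:**
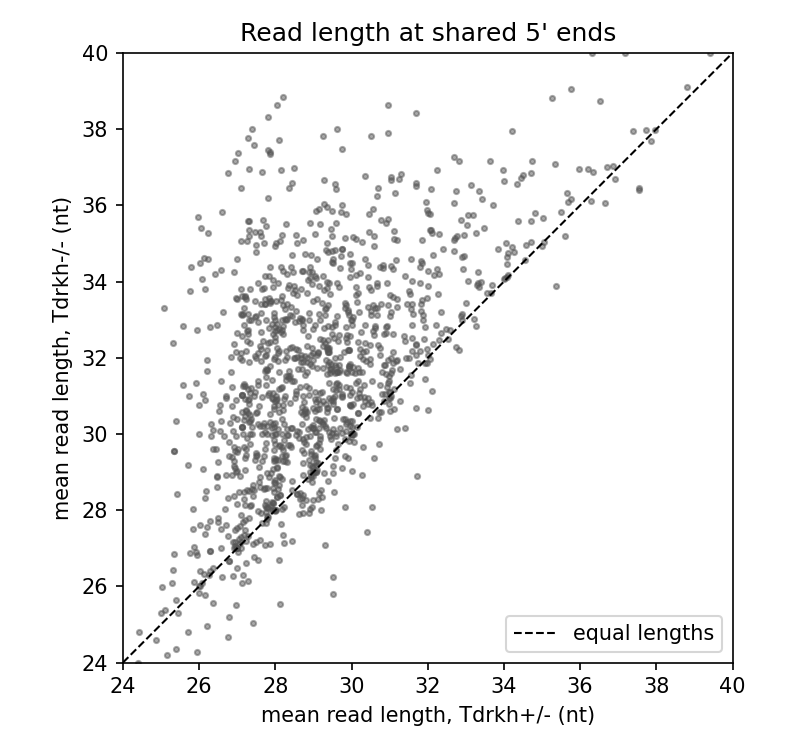
Mean length of sense reads of 24 to 40 nt (nt) in Tdrkh-/- (vertical axis) against Tdrkh+/- (horizontal axis) at the 1233 5′ ends that had 20 or more reads in both, 1 point per end, with equal lengths as a dashed line. Of the points, 1086 lie above the line.

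Long knockout reads mostly began where shorter control reads began. Of the 291256 Tdrkh-/- reads of 31 to 37 nt, 87.9% (87.8 to 88.0) started at the 5′ end of a 24 to 30 nt read of Tdrkh+/-, and 73.7% did so for the shorter reads of Tdrkh-/- itself. When starts were moved downstream by 1 to 10 nt, the median share was 65.5% and the highest 70.7%. Restricted to starts with a U, it was 90.2% at the true start against 74.8% (median) and 86.5% (highest) at moved starts with a U. With single-gene sequences alone the share was 80.3% against 55.1% (median) and 61.8% (highest).

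The ends printed above show how differently single positions behaved. At 45552 reads of 24 to 30 nt numbered 386 in Tdrkh-/- and 3052 in Tdrkh+/-, and reads of 31 to 37 nt 8455 and 142. The leading form there was 34 nt with 7054 reads in Tdrkh-/- and 30 nt with 1651 in Tdrkh+/-. At 21375 the leading form was 38 nt with 7232 divided reads against 30 nt with 2139, and the mean length 36 nt against 29.3 nt. At 104098 the leading forms were 33 nt and 27 nt, with 7409 and 615 reads. These 3 ends all begin with U, and their reads were longer in the knockout.

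Other ends had the same leading length in both libraries. The end at 13424 gave a 27-nt RNA in both libraries, with 566 reads in Tdrkh-/- and 9698 in Tdrkh+/-, and 27 and 4 reads of 31 to 37 nt. Over 24 to 40 nt it had 858 and 9924 reads, a log2 ratio of -3.61 (-3.71 to -3.51), with no excess of longer forms of similar size. The end at 105875 kept 29 nt as its leading length in both, with 3942 and 6066 divided reads (-0.70). The end at 67752, which begins with A, had 11717 and 1111 reads (3.32), and 30 nt led in both, with 318 reads against 314 of 28 nt in Tdrkh+/-. Its reads were longer in the knockout all the same, with 4598 and 122 of 32 nt and mean lengths of 30.9 and 29.5 nt. The end at 104096, also with a 5′ A, had 23901 and 6921 reads (1.71) and leading lengths of 34 and 28 nt.

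Of the 580 ends with 200 or more reads over both libraries, 470 had a U (81.0%), 260 were higher in Tdrkh-/- by 2-fold or more and 161 lower by as much, and 109 and 50 differed 10-fold or more. Of the 580 ends, 3 had 0 reads in Tdrkh+/- and 1 had 0 reads in Tdrkh-/-. A count of 0 was set to 3, so an end absent from Tdrkh+/- can rank below one with 1 or 2 reads there. The extremes of the ratio so computed are given by their sequences because nearly all their reads were in 1 library.
5′ end 82518, chr10:83447844-83447873: Cttctgttagtgtccatgtgtctctgttga
5′ end 110730, chr10:83476056-83476082: Taggaaacagagttcataacaagcact
5′ end 104977, chr10:83470303-83470330: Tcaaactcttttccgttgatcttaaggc
The end at 82518 had 557 divided reads in Tdrkh-/- and 2 in Tdrkh+/-, a log2 ratio of 8.04 (6.18 to 11.09). The leading length there was 33 nt, with 480 and 2 reads, and the printed 30-nt form had 9 and 0. The end at 85259 had 203 and 1 (7.59, 5.09 to 12.90) and no read of 24 to 30 nt. The end at 110730 had 1 and 248 reads (-8.03, -13.34 to -5.54), of which 188 were the printed 27-nt form. The end at 104977 had 0 and 241 reads, a log2 ratio of -6.41 with the count of 0 set to 3. The upper limit of its interval was -6.10, and it has no lower limit.

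Most sense reads began with U, as primary piRNAs do, and at 24 to 30 nt the share was smaller in the knockout. U stood first in 67.5% (67.2 to 67.7) of Tdrkh-/- reads and in 80.0% (79.8 to 80.2) of Tdrkh+/- reads of that size, and U makes up 29.2% of the mRNA. Longer reads had shares of 73.2% and 72.8%. With each distinct sequence counted once the order at 24 to 30 nt turned, to 69.1% and 66.2%, and with single-gene sequences it held, at 70.8% and 83.2%. Among reads without a 5′ U, position 10 was an A, the mark of secondary piRNAs, in 72.6% of Tdrkh-/- reads and 62.5% of Tdrkh+/- reads of 24 to 30 nt. At the other positions from 2 to 20 of these reads A had medians of 26.7% and 26.3% and highest values of 41.1% and 37.1%. In longer reads the position-10 shares were 69.9% and 65.1%. The ends at 104096 and 67752 both begin with A and have an A at position 10.

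The base that follows the 3′ end in the mRNA differed between the libraries more than the 5′ base did. Of the 24 to 30 nt reads, 50.1% (49.9 to 50.4) in Tdrkh-/- and 25.5% (25.3 to 25.7) in Tdrkh+/- were followed by a U, and of the 31 to 37 nt reads 59.6% (59.5 to 59.8) and 35.8% (35.4 to 36.2). The next base downstream was U in 29.1% and 30.5% of shorter reads and in 22.9% and 27.3% of longer reads, and the last base of the read was U in 29.8% and 33.6% and in 32.5% and 37.1%. At 24 to 30 nt U was also more frequent in Tdrkh-/- at some other positions by smaller margins, among them the 4th base after the read, at 33.8% and 27.5%. By length, the share in Tdrkh-/- was highest at 38 nt (67.2%) and 32 nt (66.9%), and Tdrkh+/- reached 47.1% at 35 nt and had its lowest value, 19.3%, at 27 nt, the most frequent length there. With each distinct sequence counted once the gap was smaller, at 43.1% and 30.1% for shorter and 44.8% and 37.1% for longer reads.

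**Figure D5:**
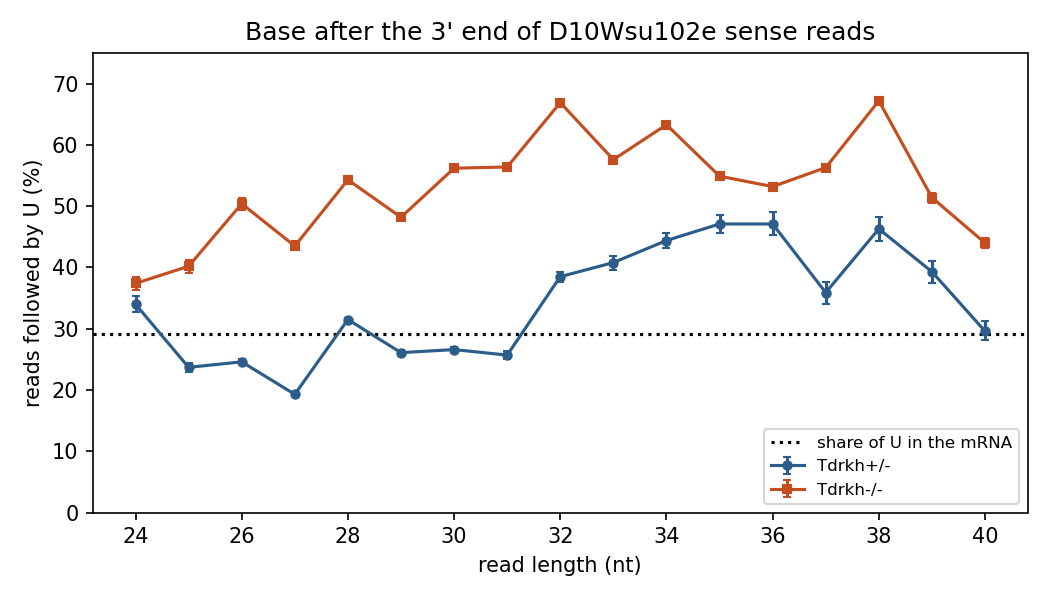
Share of sense reads followed by U in the mRNA (vertical axis, %) at each read length from 24 to 40 nt (horizontal axis), for Tdrkh+/- (circles) and Tdrkh-/- (squares) with Wilson 95% intervals for counting error, and the share of U in the mRNA as a dotted line at 29.2%. The Tdrkh-/- values lie above those of Tdrkh+/- at every length drawn, and the Tdrkh+/- value is lowest at 27 nt (19.3%).

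Reads were followed directly by another 5′ end in 18.6% to 32.6% of cases. The base after a 31 to 37 nt read was itself the 5′ end of a read of 24 to 40 nt in 23.8% of Tdrkh-/- reads and 32.6% of Tdrkh+/- reads, against medians of 16.0% and 23.5% and highest values of 23.7% and 31.3% at distances of up to 10 nt to either side. At 24 to 30 nt the shares were 26.8% and 18.6%, against medians of 19.8% and 22.4% and highest values of 33.5% and 32.0%, so the Tdrkh+/- share lay below its median.

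Antisense RNAs came from a few places. They numbered 64963 in Tdrkh-/- and 107704 in Tdrkh+/- at 24 to 30 nt (-0.81) and 161623 and 23860 at 31 to 37 nt (2.68), the same directions as on the sense strand. The first 10 kb of the mRNA had 0 antisense reads of 24 to 37 nt in both libraries, where a count of 0 allows up to 3, although 11392 and 22065 sense reads began there. An 8-kb stretch that starts at 100 kb held 61.9% of the antisense reads of Tdrkh-/- and 80.8% of those of Tdrkh+/-. The sequences there were mostly shared with other genes: of 140298 and 106261 antisense reads, 17950 and 11812 were of single-gene sequences. Where the last 1056 bp of the gene overlap Aldh1l2, a mitochondrial folate enzyme gene on the - strand (83487450 to 83534140), there were 6 and 2 antisense reads.

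Sense and antisense reads overlapped by 10 nt, the distance left by ping-pong amplification, where a piRNA on either strand directs the cut that starts its partner, more often than by other lengths when shared sequences were included. An antisense 5′ end at that distance was found for 26% of the 24 to 30 nt sense reads in Tdrkh-/- and 19.5% in Tdrkh+/-, against medians of 7.38% and 9.88% and highest values of 21% and 12.6% at the other overlaps of 1 to 24 nt. Among longer reads the shares were 21.3% and 21.6%, with highest values elsewhere of 15.0% and 10.1%. With single-gene sequences they were far lower, 9.57% and 2.47% at 24 to 30 nt, against highest values elsewhere of 11.2% and 2.38%. Longer single-gene reads had 7.89% and 4.01%, against 7.91% and 2.55%, so in Tdrkh-/- another overlap was the more frequent at both sizes. The end at 67752 had 284 and 26 antisense reads at this distance, and those at 13424 and 45552 had 0 in both libraries. The end at 104096, also with a 5′ A, had 12 and 14, beside 23901 and 6921 sense reads. Of the other ends printed first, 105875 had 98 and 20, 21375 had 0 and 6, and 104098 had 0 and 5.

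Other genes of box C/D ribonucleoprotein assembly gave far fewer small RNAs than D10Wsu102e. Of the 11 listed genes in the annotation, 5 reached 500 reads of 24 to 30 nt. The share of all annotated genes that reach this minimum was not computed, so the list cannot be called rich or poor in hosts. Of the 5, 4 were lower by 2-fold or more at that size and 4 higher by as much at 31 to 37 nt, against 73.4% and 77.8% of all host genes. Nop58, a core protein of these particles, had 401 and 662 reads of 24 to 30 nt (-0.80) and 1713 and 200 of 31 to 37 nt (3.02). Snu13, another core protein, had 430 and 1187 (-1.54) and 233 and 318 (-0.53). Pih1d1, a subunit of the assembly chaperone, had 209 and 463 (-1.23) and 322 and 79 (1.95). The neighbours of D10Wsu102e were poor hosts, with 136 and 239 reads of 24 to 30 nt in Slc41a2, a magnesium transporter, and 0 in Gm40723.

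The host genes whose length profiles were most like that of D10Wsu102e were Plekha8, Cenpf, 4933431E20Rik, Mau2 and Strn. Likeness was the sum of absolute differences in the share of reads at each length from 24 to 40 nt, added over the 2 libraries, and it was computed for 3257 genes with a median of 0.824. Plekha8, a lipid transfer protein, had 0.338, with 2010 and 7017 reads of 24 to 30 nt (-1.88) and 4824 and 1393 of 31 to 37 nt (1.71). Cenpf, a centromere protein, had 0.340, and the other three had 0.368 to 0.378. In these 5 genes the log2 ratio at 24 to 30 nt ran from -2.37 to -0.96 and that at 31 to 37 nt from 1.48 to 1.76. These genes had 80.9% to 99.9% of their reads in single-gene sequences, against 65.5% for D10Wsu102e.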

How the data were processed

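The authors deposited raw read counts of distinct small RNA sequences, 1 table per library, with no further normalization. An Illumina small RNA kit and a Genome Analyzer II were used, per the labels' protocols. The submitters' processing notes name Bowtie and mm9 with no role, and how reads were trimmed or filtered is not given in the sources used here.

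All sequences were matched exactly on both strands to GENCODE M21 transcripts (GRCm38) with a matcher in Python 3.11.15, NumPy 2.4.6, pandas 2.3.3, SciPy 1.17.1 and Numba 0.67.0, with figures from Matplotlib 3.10.9. No genome sequence was used, and RefSeq gene limits are those of GRCm38.p6. Reads of 18 to 25 nt in microRNA hairpins set the scale. Intervals are Wilson's for shares and, for ratios, exact conditional binomial ones on counts rounded to whole numbers. A count of 0 was set to 3, and no ratio was taken where both counts were 3 or lower. The matcher was checked against plain string search, and gene ratios were tested on simulated data.

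Named 5′ ends are the 8 with the largest mean share, of which 1 is not reported here, and, among ends with at least 200 reads, the 2 highest and 2 lowest ratios; an end without a 24 to 30 nt read has no printed sequence. Named genes are the 5 of most similar profile (at least 50% of reads in single-gene sequences), a box C/D list and neighbours. The gene, lists and rules were chosen with earlier results of these data known. Alternatives tried were other scalings, distinct sequences, sequences read once, single-gene sequences, narrower windows and other minimums.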

Additional observations from a re-analysis of the deposited data

How the results depend on the processing

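The direction of both ratios held under every alternative run, and their size did not. The log2 ratio at 24 to 30 nt (-0.92) was -1.34 per read listed, -1.49 per transcript-matching read, -1.46 with each distinct sequence counted once (per distinct sequence listed), -0.89 without sequences read once, -1.23 with sequences matching 1 gene and -1.61 at 26 to 28 nt. At 31 to 37 nt (2.35) it was 1.93, 1.78, 0.66, 2.42, 2.33 and, at 33 to 36 nt, 3.04. Alternatives chosen after seeing the data gave -0.85 and 2.38 with repeat-derived sequences kept, -1.02 and 2.29 without the richest 1-kb stretch, and -2.33 and 2.46 within the RefSeq part. The length difference at shared ends (2.20 nt) ran from 1.67 to 2.44 nt over its 4 alternatives. Counting distinct sequences once, and then taking those that match 1 gene, the 3′ UTR share at 24 to 30 nt was 99.6% and 99.7% in Tdrkh-/- (99.8% with all reads) and 99.4% and 99.3% in Tdrkh+/- (99.5%). At 31 to 37 nt it was 99.6% and 99.7% in both (99.8%). The 5′ U share, in the same order, was 69.1% and 70.8% in Tdrkh-/- and 66.2% and 83.2% in Tdrkh+/- at 24 to 30 nt, and 69.0% and 80.2%, and 65.7% and 79.6%, at 31 to 37 nt. The share followed by U was 43.1% and 59.0% in Tdrkh-/- and 30.1% and 24.7% in Tdrkh+/- at 24 to 30 nt, and at 31 to 37 nt 44.8% in Tdrkh-/- for distinct sequences and 37.1% and 33.8% in Tdrkh+/-. The share of long Tdrkh-/- reads that began at a Tdrkh+/- 5′ end (87.9%) was 65.9% and 80.3%. The cause of these shifts was not tested.

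Host genes at least 2-fold lower at 24 to 30 nt (2940) numbered 7257 with a minimum of 100 reads, where 10301 genes were compared. Those at least 2-fold higher (203) numbered 360 with that minimum, 6 with distinct sequences and 51 with sequences matching 1 gene. At 31 to 37 nt those lower (48) numbered 88 per read listed, 150 with the lower minimum and 90 with distinct sequences, and those higher (3120) numbered 7421 and 639 with the latter 2. No paired analysis was possible because each genotype has 1 library, and no replicate could be left out.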
